A study of Mus musculus with 107 samples.

Results

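A set of 6 genes that mark oligodendrocyte progenitors and newly committed oligodendrocytes was followed through an array survey of mouse brain cell types: Pdgfra, Gpr17, Cspg4, Vcan, Bmp4 and Ccnd1. They were matched by symbol in the array annotation, and each was represented by the probe set with 1 gene symbol that had the highest mean log2 intensity over all 76 TRAP and 31 unbound arrays. All 6 were found, out of 18194 genes with such a probe set. TRAP stands for translating ribosome affinity purification: a bacterial artificial chromosome (BAC) transgene puts a tagged ribosomal protein into a chosen cell type, the tagged ribosomes are pulled down with the RNA they carry, and what stays behind is the unbound fraction.

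The 24 TRAP populations came from BAC transgenic mice, each with 1 driver gene, with 3 arrays each except cortical astrocytes with 4 and Purkinje neurons with 6. Each population was of 1 line, except that cortical astrocytes and Purkinje neurons were each of 2 lines with the same driver. Mixed oligodendroglia were taken from line JD97, whose driver is Olig2, in cerebellum and in cortex (3 TRAP arrays each). Mature oligodendrocytes were taken from line JD307, whose driver is Cmtm5, in cerebellum and in cortex (3 TRAP arrays each). The other 20 TRAP populations were neurons, astrocytes and Bergmann glia. Unbound RNA was measured in 6 tissues, with 7 arrays of cerebellum, 9 of cortex, 6 of striatum and 3 each of spinal cord, brainstem and basal forebrain. The unbound RNA came from transgenic mice too. Age, sex and pooling of the animals are not given in the sources used here. A driver limits each population as a model: Olig2 is active through the oligodendrocyte lineage and also in some astrocytes.

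Oligodendrocyte progenitors divide in the adult brain, keep contact with axons and blood vessels, and give rise to cells that lay down myelin. PDGF-A acting on the receptor encoded by Pdgfra keeps them alive and dividing, the proteoglycans encoded by Cspg4 (also called NG2) and Vcan (versican) lie at their surface and in the matrix around them, and Ccnd1 encodes a cyclin that drives entry into the cell cycle. Gpr17, an orphan receptor related to nucleotide and leukotriene receptors, and Bmp4, a secreted growth factor, are best known from the committed cells that have left the cycle but do not yet make myelin. None of the 6 is private to the lineage: Pdgfra also marks fibroblasts, Cspg4 marks pericytes, and Vcan, Bmp4 and Ccnd1 are used by many tissues.

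The stretches of 250 bases before a transcription start listed in the RefSeq promoter table (build GRCm38.p6) were read, for 4 of the 5 genes looked up. Gpr17 was not looked up. For Pdgfra and Vcan the listed start lies inside the span of the gene (chr5:75151322-75198206 and chr13:89655309-89743027). The stretches are shown because Pdgfra and Cspg4 follow each other closely across the 24 populations while Vcan and Bmp4 follow them less, as described further on. Each is written 5′ to 3′ on the gene's own strand, ending at the base before the start: Pdgfra at chr5:75152001-75152250 (plus strand), Cspg4 at chr9:56864854-56865103 (plus strand), Vcan at chr13:89742513-89742762 (minus strand) and Bmp4 at chr14:46390670-46390919 (minus strand). Capitals mark matches, on either strand, to the E-box letters CAGNTG, the kind of site that OLIG2 and related factors bind, or to the SOX core letters ACAANG.
Pdgfra: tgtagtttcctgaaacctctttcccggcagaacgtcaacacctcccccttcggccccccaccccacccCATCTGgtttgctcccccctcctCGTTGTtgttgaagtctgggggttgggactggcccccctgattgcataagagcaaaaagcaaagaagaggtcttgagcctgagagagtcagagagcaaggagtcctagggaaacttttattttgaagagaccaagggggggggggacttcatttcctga
Cspg4: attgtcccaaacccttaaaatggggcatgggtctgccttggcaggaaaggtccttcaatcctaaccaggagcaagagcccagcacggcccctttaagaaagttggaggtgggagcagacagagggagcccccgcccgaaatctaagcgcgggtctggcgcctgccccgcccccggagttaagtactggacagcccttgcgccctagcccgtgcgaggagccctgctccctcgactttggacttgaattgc
Vcan: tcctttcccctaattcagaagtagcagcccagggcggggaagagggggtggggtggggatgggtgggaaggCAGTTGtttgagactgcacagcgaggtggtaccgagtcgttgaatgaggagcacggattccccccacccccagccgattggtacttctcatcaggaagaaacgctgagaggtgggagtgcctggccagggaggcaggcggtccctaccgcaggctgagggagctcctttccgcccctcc
Bmp4: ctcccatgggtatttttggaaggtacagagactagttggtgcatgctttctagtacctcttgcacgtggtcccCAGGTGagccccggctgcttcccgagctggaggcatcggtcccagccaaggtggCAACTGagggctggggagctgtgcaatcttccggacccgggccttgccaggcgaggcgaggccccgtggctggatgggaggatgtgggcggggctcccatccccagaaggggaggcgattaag
The E-box letters were found 1 time before Pdgfra, 1 time before Vcan and 2 times before Bmp4, and not before Cspg4. The SOX letters were found 1 time before Pdgfra and not in the other 3 windows. No match of one motif overlapped a match of the other. Of 32851 promoter windows of the same length, 44.8% held the E-box letters and 36.3% held the SOX letters, so a match is common and describes the window only. The start of Ccnd1 had no entry in the table.

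The values below are log2 of the deposited intensities, shifted so that the biotinylated control probe sets are level between groups. A level is a group's mean on that scale, and a difference of 1 is a 2-fold change. A group mean under 6, an intensity of 64, was treated as not above background, and folds against such a group are given as "at least", computed with 6 in its place. A gene was called higher or lower at an adjusted p under 0.05 (limma, Benjamini-Hochberg over all genes tested) and at least 2-fold. Levels belong to 1 probe set and are not compared between genes. The arrays of a group often carried identical values for a gene, which makes some SDs 0 and others very small.

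The driver genes and the myelin genes were above background in the 4 oligodendroglial groups. Olig2, the lineage transcription factor that drives the mixed line, averaged 12.08 ± 0.08 in mixed cerebellum and 12.13 ± 0.36 in mixed cortex, against 9.50 ± 1.07 in mature cerebellum and 10.46 ± 0.45 in mature cortex (SD, n = 3 each). Cmtm5 averaged 11.65 ± 0.24 and 11.03 ± 0.02 in mixed cerebellum and cortex, against 12.51 ± 0.63 and 12.18 ± 0.08 in mature cerebellum and cortex. All 14 myelin genes measured had means of at least 6 in each of the 4 groups. Fibroblast and endothelial lists had 0 of 8 genes each at 6 or more in the mixed groups, the pericyte list had 1 of 10 and the microglial list had 0 of 9 in mixed cerebellum and 1 of 9 in mixed cortex. Defining pericyte genes Pdgfrb, Rgs5 and Kcnj8 and fibroblast genes Dcn, Lum and Col1a1 were under 6 in both mixed groups. Fewer cells of a type and less RNA per cell cannot be told apart in samples of this kind.

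All 6 genes were higher in mixed oligodendroglia than in the unbound RNA of the same tissue, in both regions. In cerebellum 6 of 6 were called higher, where 17.8% of all genes tested were called higher, with differences of 2.65 to 6.43 beside a median of -0.53 for all genes. Cspg4 and Bmp4 were under 6 in the unbound RNA of both regions, so they were tested through the mixed group alone and could be called in 1 direction only. Higher calls were 31.2% of all calls there, 52.4% under quantile normalization and 61.6% without the shift by control probe sets. In cortex 6 of 6 were called higher, where 31.8% of all genes were, with differences of 3.70 to 6.30 beside a median of 0.36. The 6 mixed arrays lay above every array of the other 22 TRAP populations for each of the 6 genes. The share of all genes for which this holds was not counted. All 6 genes were also called higher in both regions when mixed oligodendroglia were set against the mean of the 7 other populations of the region that were not oligodendroglial. In that comparison 47.1% of all genes were called higher in cerebellum and 32.3% in cortex. A lower call required the 7 others to average above unbound RNA. For all 6 genes they averaged below it in both regions, so only a higher call was possible. Bmp4 in both regions, Cspg4 in cerebellum and Vcan in cortex also reached 6 through the mixed group alone. Higher calls were 85.1% of all calls in cerebellum, and 63.1% under quantile normalization.

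**Figure D1:**
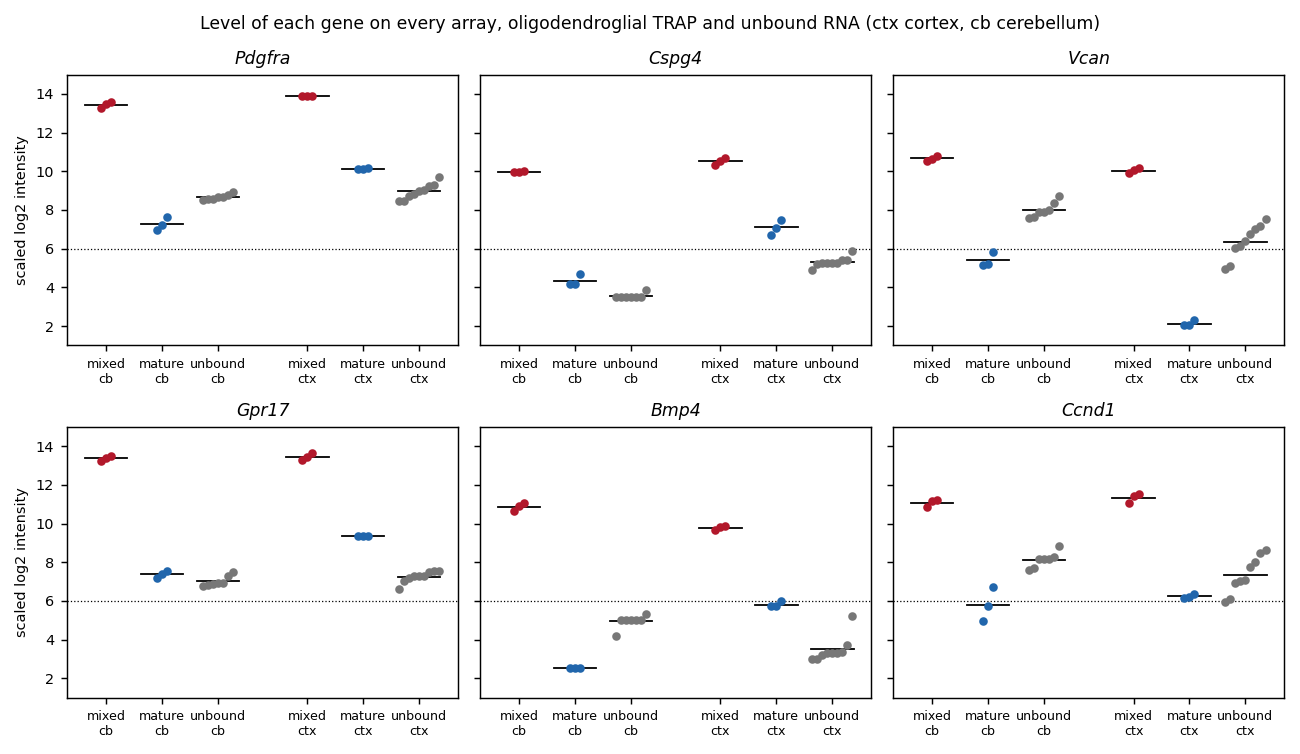
Level of each gene (scaled log2 intensity, vertical axis) on every array of the mixed, mature and unbound groups, cerebellum (cb) left and cortex (ctx) right. Points are arrays, bars are group means and the dotted line marks 6. For each gene shown the mixed arrays lie above all mature and unbound arrays of these regions. The share of all genes for which this holds was not counted.

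Pdgfra, the receptor for PDGF-A, measured 13.49, 13.56 and 13.26 on the mixed cerebellum arrays, against 7.63, 6.97 and 7.21 on the mature cerebellum arrays. In cortex it measured 13.87, 13.88 and 13.88 on the mixed arrays, against 10.13, 10.13 and 10.16 on the mature arrays. Mixed and mature arrays did not overlap in either region, and the mature cortex arrays stood well above the mature cerebellum arrays. Unbound RNA ranged over 8.53 to 8.93 in cerebellum (median 8.69, n = 7) and 8.48 to 9.72 in cortex (median 9.0, n = 9), between the mixed and the mature values in cerebellum and below both in cortex. Mixed over mature was 71.7-fold in cerebellum (log2 difference 6.16 ± 0.28 SE, adjusted p = 2.65e-35, limma) and 13.3-fold in cortex (3.74 ± 0.28 SE, adjusted p = 1.19e-21). The other 2 probe sets of Pdgfra also had higher means in mixed than in mature oligodendroglia, and the brighter of them had 10.58 in mixed and 3.24 in mature cerebellum, and 10.13 in mixed and 3.88 in mature cortex.

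Gpr17, the orphan receptor of committed cells, measured 13.41, 13.47 and 13.23 in mixed cerebellum, against 7.41, 7.19 and 7.57 in mature cerebellum. It measured 13.45, 13.30 and 13.64 in mixed cortex, against 9.33 on each of the 3 mature cortex arrays. Mature cortex was again the higher of the mature groups. Unbound RNA ranged over 6.79 to 7.51 in cerebellum (median 6.94) and 6.63 to 7.57 in cortex (median 7.28), so the mature cerebellum arrays overlapped the unbound ones and the mature cortex arrays did not. The difference between mixed and mature was 62.9-fold in cerebellum (5.98 ± 0.23 SE, adjusted p = 6.02e-40, limma) and 17.5-fold in cortex (4.13 ± 0.23 SE, adjusted p = 5.94e-29). Against unbound RNA the mixed groups were 80.9-fold higher in cerebellum and 73.8-fold higher in cortex. The 7 nucleotide and cysteinyl leukotriene receptors most like it (Cysltr1, Cysltr2, P2ry1, P2ry2, P2ry12, P2ry13 and P2ry14) were all under 6 in the 4 oligodendroglial groups, and none was tested there.

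Cspg4, the membrane proteoglycan, measured 9.98, 9.99 and 9.96 in mixed cerebellum, against 4.17, 4.17 and 4.67 in mature cerebellum. It measured 10.31, 10.67 and 10.54 in mixed cortex, against 7.49, 7.08 and 6.73 in mature cortex. With this probe set it was thus above background in mature cortex and not in mature cerebellum. The other Cspg4 probe set had 8.57 in mixed and 2.24 in mature cerebellum. In cortex that probe set had 8.54 in mixed and 5.65 in mature oligodendroglia, so both mature groups were under 6. Unbound RNA was under 6 on every array of both regions, with medians of 3.49 in cerebellum and 5.25 in cortex. Mixed exceeded mature by at least 15.8-fold in cerebellum (5.64 ± 0.19 SE, adjusted p = 4.63e-44, limma) and by 10.6-fold in cortex (3.41 ± 0.19 SE, adjusted p = 1.35e-28).

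Vcan, the secreted proteoglycan that binds hyaluronan, measured 10.65, 10.81 and 10.55 in mixed cerebellum, against 5.22, 5.82 and 5.13 in mature cerebellum. In mixed cortex it measured 10.18, 10.04 and 9.88, against 2.30, 2.03 and 2.03 in mature cortex. Both mature groups were under 6, where values have no order. The unbound means were above 6, with arrays at 7.58 to 8.74 in cerebellum (median 7.92) and 4.95 to 7.51 in cortex (median 6.37). Mixed exceeded mature by at least 25.4-fold in cerebellum (5.28 ± 0.40 SE, adjusted p = 3.33e-21, limma) and at least 16.4-fold in cortex (7.92 ± 0.40 SE, adjusted p = 4.21e-32). Of the 8 Vcan probe sets only this one was above 6 in any of these groups, so the gene rests on 1 probe set.

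Bmp4, the secreted ligand, measured 10.88, 11.04 and 10.67 in mixed cerebellum, against 2.51 on each mature cerebellum array. It measured 9.68, 9.84 and 9.86 in mixed cortex, against 5.98, 5.73 and 5.72 in mature cortex. Both mature groups and the unbound RNA of both regions had means under 6. The unbound range was 4.21 to 5.30 in cerebellum (median 5.01) and 3.00 to 5.22 in cortex (median 3.30). Mixed exceeded mature by at least 29.1-fold in cerebellum (8.35 ± 0.21 SE, adjusted p = 7.05e-54, limma) and at least 13.9-fold in cortex (3.99 ± 0.21 SE, adjusted p = 1.54e-30).

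Ccnd1, the cyclin of early G1 phase, measured 11.19, 11.18 and 10.87 in mixed cerebellum, against 5.74, 6.70 and 4.97 in mature cerebellum. It measured 11.52, 11.42 and 11.04 in mixed cortex, against 6.18, 6.34 and 6.18 in mature cortex. With this probe set the mature groups did not stand apart from each other, since the cerebellum arrays spread around the cortex arrays. The unbound means were above the mature means in both regions, with arrays at 7.58 to 8.86 in cerebellum (median 8.19) and 5.97 to 8.61 in cortex (median 7.07). Mixed exceeded mature by at least 33.8-fold in cerebellum (5.28 ± 0.49 SE, adjusted p = 1.66e-16, limma) and by 34.2-fold in cortex (5.10 ± 0.49 SE, adjusted p = 7.45e-16). The other 2 probe sets gave smaller differences in the same direction, 4.14 and 4.39 in cerebellum and 2.26 and 3.47 in cortex. In both of them the mean was higher in mature cortex than in mature cerebellum, 7.99 against 6.48 and 7.83 against 6.51.

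In the direct comparison 6 of 6 genes were called higher in mixed than in mature oligodendroglia in cerebellum, where 44.4% of all 4273 genes tested were called higher, and 6 of 6 in cortex, where 43.4% of 6497 were. Vcan and Bmp4 in both regions, and Cspg4 and Ccnd1 in cerebellum, reached the minimum of 6 through the mixed group alone. Pdgfra in cerebellum and Ccnd1 in cortex were below unbound RNA in the mature group, so they could be called higher only. The median difference over all genes tested was 0.83 in each region, and the 6 genes lay between 5.28 and 8.35 in cerebellum and between 3.41 and 7.92 in cortex. Higher calls made up 85.4% of all calls in cerebellum and 86.1% in cortex. Under quantile normalization these shares were 71.8% and 57.6% and the medians 0.35 and 0.11, and 6 of 6 genes were still called higher in each region. Without the shift by control probe sets the medians were 1.31 in cerebellum and 0.89 in cortex.

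**Figure D2:**
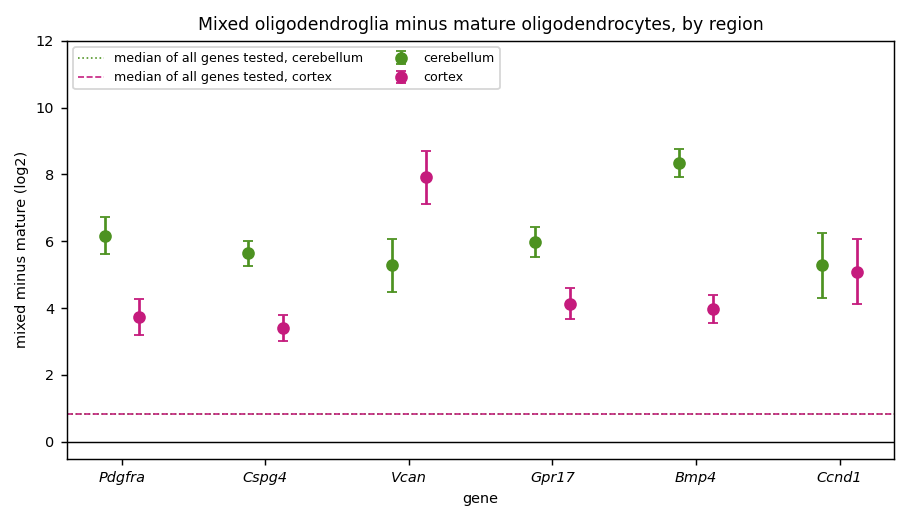
Difference between mixed and mature oligodendroglia for each gene (log2, vertical axis) in cerebellum and cortex, with 95% confidence intervals from the limma fit. Dashed and dotted lines mark the median of all genes tested, 0.83 in each region; differences that rest on a mature mean under 6 (Vcan and Bmp4 in both regions, Cspg4 and Ccnd1 in cerebellum) are not exact in size.

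The same difference was compared between the regions by an interaction term, mixed minus mature in cerebellum less the same in cortex. For Pdgfra and Gpr17, which were above background in all 4 groups, the term was called higher, at 2.43 ± 0.39 SE (adjusted p = 1.90e-07, limma) and 1.85 ± 0.33 SE (adjusted p = 1.65e-06), where 13.9% of all genes were called higher. A mature mean under 6 enters the terms of the other 4 genes, so their sizes are not exact. As fitted, the terms were 2.23 for Cspg4 and 4.36 for Bmp4 (both called higher), -2.64 for Vcan (called lower, where 23.1% of all genes were) and 0.18 for Ccnd1 (not called). With every value under 6 raised to 6 before the fit, an alternative chosen after seeing the data, Cspg4 had 0.57 and was not called, Vcan turned to 0.63 and Ccnd1 to -0.25, neither called, and Bmp4 had 1.07 and was called, which is its difference between the mixed groups. Pdgfra and Gpr17 stayed at 2.43 and 1.85 and were called, where 11.1% of all genes were called higher. Higher calls were 37.5% of all calls in the fit as it stands, 56.2% under quantile normalization and 67.1% without the shift. The Pdgfra term was 0.45 with the mean of its 3 probe sets and was then no longer called.

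In mature oligodendrocytes 3 of the 3 genes tested were called lower in cerebellum than in cortex, where 5.26% of all genes were: Pdgfra by 2.87 ± 0.28 SE (7.27 in cerebellum, 10.14 in cortex), Cspg4 by 2.76 ± 0.19 SE (4.34 and 7.10, at least 2.14-fold) and Gpr17 by 1.94 ± 0.23 SE (7.39 and 9.33). Pdgfra was below unbound RNA in mature cerebellum and Cspg4 reached 6 in mature cortex alone, so these 2 could be called lower only. The other probe sets of both genes were under 6 in both mature groups. The brighter of those for Pdgfra had 3.24 in mature cerebellum and 3.88 in mature cortex. Lower calls were fewer than higher ones here, with 65.9% of all calls higher, 37.5% under quantile normalization and 55.1% without the shift, and the 3 calls were made under each of these. Vcan and Bmp4 were not tested, as their means were under 6 in both mature groups. Ccnd1, with 5.81 in mature cerebellum and 6.23 in mature cortex, was not tested because it was below the unbound RNA of the tissue in both regions, and such comparisons required a gene to be above it on at least 1 side.

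In mixed oligodendroglia 1 of 6 genes was called different between the regions. Bmp4 was called higher in cerebellum than in cortex, where 12.6% of all genes were, by 1.07 ± 0.21 SE (10.86 ± 0.19 in cerebellum, 9.79 ± 0.10 in cortex, SD, n = 3 each, adjusted p = 1.35e-05, limma). Without replicate 2 of mixed cerebellum that difference was 0.98 and fell short of the 2-fold requirement. Higher calls were 57.8% of all calls, and 83.0% without the shift. The other 5 differences were between -0.53 for Cspg4 (adjusted p = 0.0186, less than 2-fold) and 0.63 for Vcan, and the 95% interval for Gpr17 was -0.55 to 0.36.

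In the unbound RNA, 1 of the 4 genes tested was called higher in cerebellum than in cortex, where 47.1% of all genes were: Vcan, by 1.69 ± 0.24 SE (8.02 ± 0.40 in cerebellum, n = 7, and 6.33 ± 0.89 in cortex, n = 9). The median gene was 0.93 higher in unbound cerebellum, and 0.13 higher under quantile normalization. Vcan was 0.95 higher under quantile normalization and not called, and Pdgfra and Gpr17 were then called lower in cerebellum (-1.23 and -1.24). Higher calls were 85.1% of all calls, 54.3% under quantile normalization and 65.4% without the shift.

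With the probe sets used, mature oligodendrocytes were not uniformly low in these genes. The other probe sets of Pdgfra (2.34 and 3.88) and Cspg4 (5.65) were under 6 in mature cortex. In cortex 3 of the 5 genes tested were called higher than in unbound RNA, where 15.7% of all genes were: Gpr17 by 2.08 ± 0.19 SE, Cspg4 by 1.79 ± 0.16 SE and Pdgfra by 1.16 ± 0.23 SE. In the same comparison 2 were called lower, where 32.8% of all genes were: Vcan (2.12 in mature cortex, 6.33 in unbound cortex, at least 1.26-fold) and Ccnd1 (6.23 and 7.33). The Ccnd1 call rested on a difference of -1.10 with overlapping arrays and was lost under 6 of the alternatives, and Ccnd1 was not tested with a minimum of 8, while the Pdgfra call was lost when limma tested against a 2-fold difference. In cerebellum 3 of the 4 genes tested were called lower than in unbound RNA, where 53.3% of all genes were: Pdgfra (7.27 in mature cerebellum, 8.68 in unbound cerebellum), Vcan (5.39 and 8.02) and Ccnd1 (5.81 and 8.13). Against unbound RNA, Cspg4 in cortex reached 6 through the mature group alone and could be called higher only. Vcan in both regions and Ccnd1 in cerebellum reached 6 through unbound RNA alone and could be called lower only. Gpr17 was not called in cerebellum (0.36, 95% interval -0.03 to 0.75), and under quantile normalization it was called higher, by 1.47. The Pdgfra difference in cerebellum was -0.51 under quantile normalization, where it was not called, nor was it when limma tested against a 2-fold difference. Over all genes the share of higher calls was 13.7% in cerebellum and 32.3% in cortex, 45.2% and 51.8% under quantile normalization. Against the mean of the 7 other populations of their region, 1 of 1 gene tested was called higher in mature cerebellum (Gpr17, at least 2.19-fold, where 31.3% of all genes were called) and 3 of 3 in mature cortex (Pdgfra, at least 4.38-fold, Cspg4, at least 1.25-fold, and Gpr17, at least 3.72-fold, where 15.4% were). For each of these genes the 7 others averaged below unbound RNA, so only a higher call was possible. Higher calls were 59.8% of all calls in that cerebellar comparison and 34.6% in the cortical one, 42.7% and 65.3% under quantile normalization, and 43.3% in cerebellum without the shift.

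Other genes of the same stages differed in the same direction between mixed and mature oligodendroglia. Of 17 further progenitor and lineage genes on the array, 15 were tested in cerebellum and 14 were called higher, and 16 were tested in cortex and 14 were called higher, with median differences of 5.00 and 3.20. Of all genes tested 44.4% were called higher in cerebellum and 43.4% in cortex. Susd5, a membrane protein gene, averaged 11.43 ± 0.13 in mixed cerebellum and 2.23 ± 0.01 in mature cerebellum, and C1ql1, a secreted C1q-like protein gene, averaged 10.90 ± 0.01 and 2.27 ± 0.00. The transcription factor gene Sox6 averaged 12.09 ± 0.09 in mixed cerebellum and 5.67 ± 1.52 in mature cerebellum. Olig1, needed for the lineage and kept by mature cells, did not pass the test, with 15.04 and 14.78 in mixed and mature cerebellum and 15.36 and 14.73 in mixed and mature cortex. Of 12 genes of committed cells, 10 were called higher in cerebellum, and in cortex 9 were called higher and 1 lower (Gpr37, -1.08). Beside these stand the same 44.4% and 43.4% of all genes called higher, and 7% called lower in cortex. Mycl, a transcription factor gene of the Myc family, averaged 8.41 ± 0.00 in mixed cerebellum and 2.59 ± 0.18 in mature cerebellum, and Fyn, a kinase gene used in myelination, averaged 13.54 ± 0.23 and 9.84 ± 0.08. In these lists and those below, a gene with a mature mean under 6 could be called higher only. That holds for Susd5, C1ql1, Sox6 and Mycl in cerebellum. Genes under 6 in both groups were not tested.

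Of 23 further cell cycle genes on the array, 17 were tested in cerebellum, with 14 called higher and 1 lower, and 20 in cortex, with 16 higher and 1 lower. Over all genes 44.4% in cerebellum and 43.4% in cortex were called higher, and 7.56% and 7% lower. The median differences were 2.30 and 2.43, beside 0.83 over all genes. Cdk4, the kinase partner of cyclin D1, averaged 12.61 ± 0.07 in mixed cerebellum and 10.31 ± 0.26 in mature cerebellum, and 11.93 ± 0.24 in mixed cortex and 9.87 ± 0.55 in mature cortex. Top2a, a topoisomerase gene of dividing cells, averaged 7.48 ± 0.46 in mixed cerebellum and 8.74 ± 0.27 in mixed cortex, and was under 6 in both mature groups. Birc5, which encodes survivin, averaged 8.05 ± 0.40 in mixed cerebellum and 6.83 ± 0.00 in mixed cortex, with 2.42 and 2.03 in mature cerebellum and cortex. Top2a and Birc5 thus reached 6 through the mixed groups alone and could be called higher only. The lower calls were cell cycle inhibitors, Cdkn1b in cerebellum (9.24 ± 0.05 in mixed, 10.57 ± 0.31 in mature) and Cdkn1a in cortex (7.34 ± 0.63 in mixed, 10.04 ± 1.26 in mature).

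Signalling and matrix genes around the 6 were tested in smaller numbers. Among 10 genes of PDGF signalling, 2 of 3 tested were called higher in mixed than in mature cerebellum and 1 of 4 in cortex, beside 44.4% and 43.4% of all genes. The ligand gene Pdgfa averaged 9.88 ± 0.10 in mixed and 9.45 ± 0.49 in mature cerebellum, and 8.94 ± 0.11 in mixed and 9.73 ± 0.53 in mature cortex, and did not pass in either. Pdgfrb, the sister receptor of pericytes, was under 6 in the 4 groups. Among 22 genes of BMP signalling, 3 of 3 tested were called higher in cerebellum and 6 of 10 in cortex, beside the same shares of all genes. The ligand gene Bmp7 averaged 6.22 ± 0.01 in mixed and 2.53 ± 0.00 in mature cerebellum, and 6.78 ± 0.00 in mixed and 2.86 ± 0.01 in mature cortex. Id2 and Id3, target genes of BMP signals that hold back differentiation, were called higher in mixed cortex, by 2.31 and 2.37. Among 16 genes of the hyaluronan matrix, in which Vcan acts, 3 were called higher and 1 lower of 5 tested in cerebellum, and 5 higher and 2 lower of 8 tested in cortex. The shares of all genes called higher were again 44.4% and 43.4%, and those called lower 7.56% and 7%. Has2, a hyaluronan synthase gene, averaged 6.76 ± 0.09 and 6.10 ± 0.37 in mixed cerebellum and cortex, and 2.21 and 2.11 in mature cerebellum and cortex. Bmp7 and Has2 thus reached 6 through the mixed groups alone and could be called higher only. Hapln2, the link protein gene of myelinated nodes, was called lower in mixed oligodendroglia, with 9.41 ± 0.13 in mixed and 11.50 ± 0.99 in mature cerebellum, and 6.53 ± 0.31 in mixed and 10.73 ± 0.34 in mature cortex.

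Of 14 myelin genes 1 was called lower in mixed than in mature cerebellum, where 7.56% of all genes were, and 5 in cortex, where 7% were, with median differences of -0.09 and -0.51 and the other genes not called. Among those called lower was Gjb1, a gap junction gene of myelinating cells, in both regions (-1.02 and -2.33). Astrocyte markers stood differently in the 2 regions. In mixed cerebellum 10 of 10 were called lower than in unbound RNA, where 39.1% of all genes were. In mixed cortex 1 was called higher, where 31.8% of all genes were, 1 lower, where 20.6% were, and 8 were not called, and 5 of 5 tested were called higher than in mature cortex, among them Fgfr3 by 3.30 and Gfap by 2.32. Their mean level was 7.12 to 7.22 over the mixed cerebellum arrays and 9.79 to 10.31 over the mixed cortex arrays, against 8.29 to 9.67 over mature cerebellum and 8.09 to 8.40 over mature cortex. Neuron markers averaged 7.92 to 8.16 over the mixed cerebellum arrays and 8.15 to 9.96 over the mixed cortex arrays, against 10.09 to 11.18 over mature cerebellum and 10.55 to 10.96 over mature cortex. Their part in the levels of the 6 genes was not tested.

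Across the other 20 TRAP populations the 6 genes were mostly called lower than in the unbound RNA of the same tissue. Of 120 pairs of gene and population, 89 were tested, 63 were called lower and 6 higher, and 20 were not called, while over all genes 31.6% of pairs tested were called lower and 18.4% higher. Higher calls were 36.8% of those over all genes, and 51.7% under quantile normalization. Vcan was called lower in 19 of 20 populations, Gpr17 in 15, Pdgfra in 14 and Ccnd1 in 10. The TRAP mean was under 6 in 19 of the 20 for Vcan, 14 for Gpr17, 11 for Pdgfra and 6 for Ccnd1. Those pairs were tested through unbound RNA alone and could be called lower only. Cspg4 and Bmp4 could be tested in few of them, Cspg4 in 7 (3 lower, 4 higher) and Bmp4 in 2 (both lower), since both means were under 6 in the rest.

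**Figure D3:**
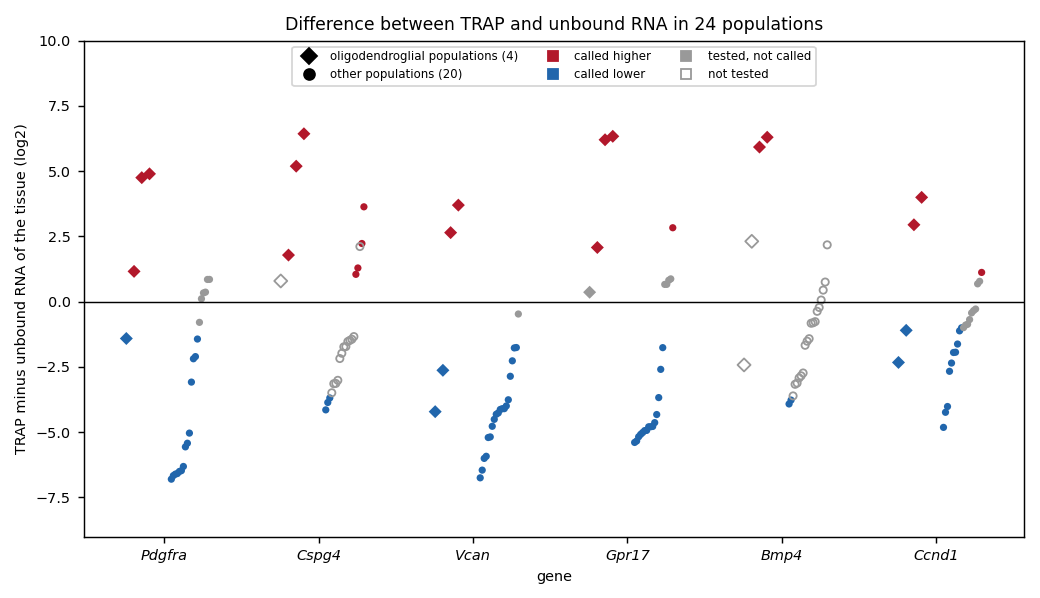
TRAP minus unbound RNA of the same tissue (log2, vertical axis) for each gene; diamonds are the 4 oligodendroglial populations and circles the other 20, coloured by call. The mixed groups are the upper 2 diamonds of each gene, and the 6 red circles are Cspg4 in 4 cortical neuron populations, Gpr17 in layer 5a neurons and Ccnd1 in layer 5b neurons.

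The 6 higher calls lay in cortical neurons. Of the 5 genes tested in each population, 2 were called higher in layer 5a neurons, where 60.7% of all genes were, 2 in layer 5b, where 36.7% were, 1 in layer 6, where 30.8% were, and 1 in Cort+ neurons, where 12.9% were. In layer 5a neurons Cspg4 averaged 8.95 ± 0.01 (SD, n = 3) against 5.31 ± 0.27 in unbound cortex (n = 9), at least 7.72-fold higher, and Gpr17 averaged 10.09 ± 0.21 against 7.26 ± 0.29, 7.13-fold higher. In layer 5b neurons Cspg4 averaged 7.54 ± 0.99, at least 2.91-fold higher, and Ccnd1 averaged 8.45 ± 0.16 against 7.33 ± 0.96, 2.18-fold higher with overlapping arrays. Cspg4 was also called higher in layer 6 neurons (6.60 ± 0.27, at least 1.52-fold) and Cort+ neurons (6.36 ± 0.00, at least 1.28-fold). The last 2 of these calls and that of Ccnd1 were lost when limma tested against a 2-fold difference, and each of the 3 under at least 1 scaling. Cspg4 was under 6 in unbound cortex, so in these populations it reached 6 through the TRAP mean alone and could be called higher only. The median over all genes was 1.31 in layer 5a, 0.69 in layer 5b, 0.61 in layer 6 and 0.18 in Cort+ neurons. Higher calls were 96.3%, 88.2%, 87.2% and 74.3% of all calls in these populations, and 56.1%, 52.9%, 55.2% and 58.0% under quantile normalization.

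Marker lists of other cell types also had higher mean levels in the same populations. In layer 5a neurons the lists for microglia, pericytes, fibroblasts, astrocytes and myelinating oligodendrocytes were above unbound cortex by means of 2.92, 2.89, 2.39, 2.27 and 1.86, and 7 of 10 pericyte genes had means of at least 6, against 3 of 10 in unbound cortex. No endothelial gene of 8 had a mean of 6 in layer 5a neurons. In layer 5b neurons the endothelial list was 3.38 and the fibroblast list 1.67 above unbound cortex. In layer 6 neurons the fibroblast list was 1.08 and the pericyte list 0.70 above it, and in Cort+ neurons these were 0.44 and 0.20. Their part in the Cspg4, Gpr17 and Ccnd1 levels was not tested. In Pnoc+ and Cck+ neurons of the same tissue the pericyte lists were 1.07 and 1.36 below unbound cortex, and Pdgfra, Gpr17 and Vcan were called lower in both, where 58.2% and 22.8% of all genes were.

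**Figure D4:**
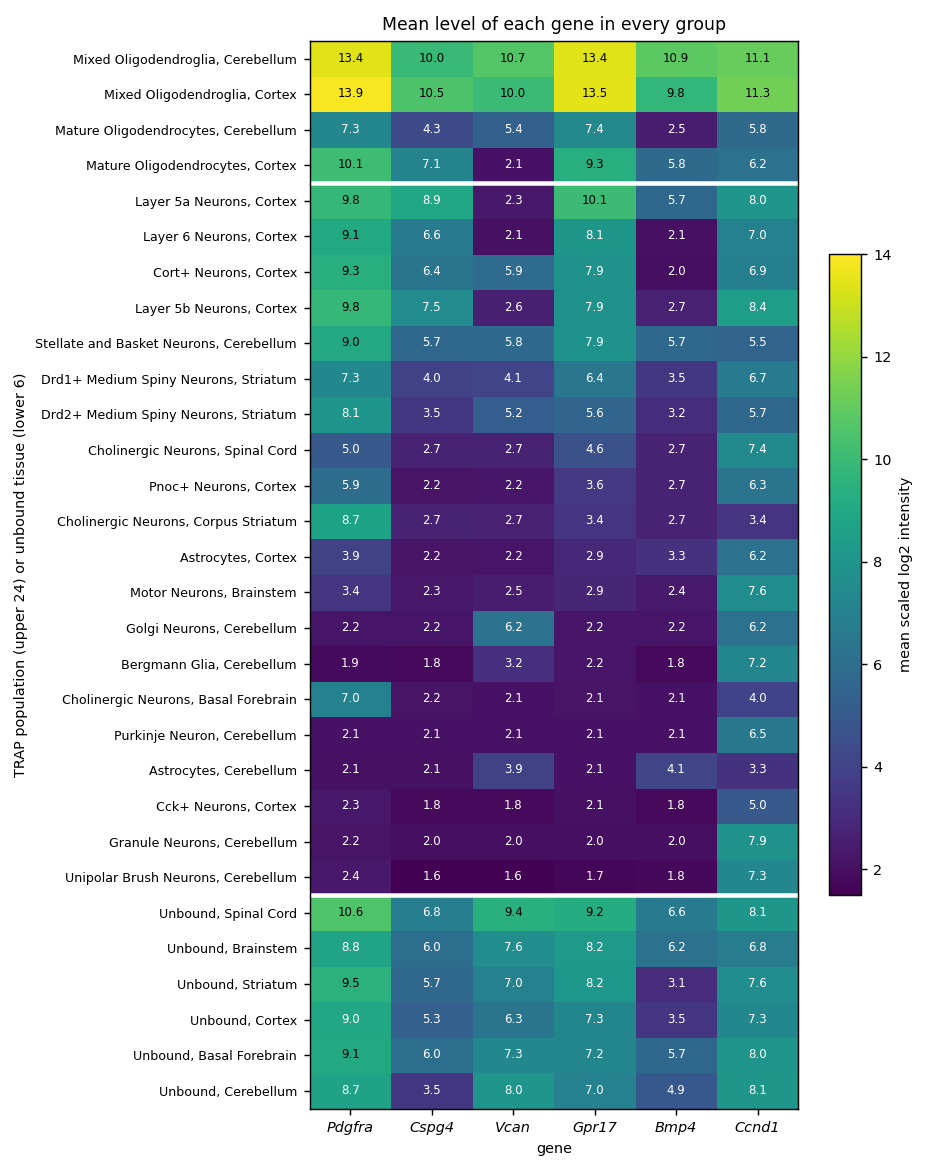
Mean level of each gene (scaled log2 intensity, colour and printed number) in the 24 TRAP populations and, under the lower white line, the unbound RNA of 6 tissues. The oligodendroglial groups are the upper 4 rows, and the 20 other populations are ordered by Gpr17.

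The order of the populations was read for each gene. For Pdgfra the mixed groups (13.44 ± 0.15 in cerebellum, 13.88 ± 0.01 in cortex) stood above all others without overlap, and mature cortex (10.14 ± 0.02) came next, overlapped by 1 array of layer 5a neurons. Neurons followed in a run whose neighbours overlapped: layer 5b (9.83 ± 0.24), layer 5a (9.83 ± 0.35), Cort+ (9.31 ± 0.60), layer 6 (9.09 ± 0.52), stellate and basket (9.05 ± 0.12), cholinergic neurons of the corpus striatum (8.73 ± 0.53) and Drd2+ medium spiny neurons (8.09 ± 0.32). Drd1+ medium spiny neurons (7.34 ± 0.06), mature cerebellum (7.27 ± 0.33) and cholinergic neurons of the basal forebrain (6.98 ± 0.24) came next, and mature cerebellum overlapped both of the others, which did not overlap each other. The remaining 11 populations had means under 6, at 1.88 to 5.90, and held both astrocyte groups, Bergmann glia, Purkinje and granule neurons.

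For Gpr17 the mixed groups overlapped each other at 13.37 ± 0.13 in cerebellum and 13.46 ± 0.17 in cortex. Layer 5a neurons (10.09 ± 0.21) came next, above mature cortex (9.33 ± 0.00) without overlap. Layer 6 (8.13 ± 0.57), Cort+ (7.92 ± 0.38), layer 5b (7.92 ± 0.45), stellate and basket neurons (7.85 ± 0.38) and mature cerebellum (7.39 ± 0.19) each overlapped the next, Drd1+ medium spiny neurons stood at 6.41 ± 0.28, and 14 populations were under 6.

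For Cspg4 layer 5a neurons (8.95 ± 0.01) again came next after mixed cerebellum (9.98 ± 0.02) and mixed cortex (10.51 ± 0.18). Layer 5b neurons (7.54 ± 0.99) and mature cortex (7.10 ± 0.38) overlapped, layer 6 neurons (6.60 ± 0.27) overlapped both, Cort+ neurons (6.36 ± 0.00) followed, and 16 of the other 20 populations were under 6.

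Vcan was above background in 3 of the 24 populations. After mixed cerebellum (10.67 ± 0.13) and mixed cortex (10.03 ± 0.15) came Golgi neurons of the cerebellum at 6.25 ± 0.09, which overlapped Cort+ neurons at 5.86 ± 1.49. Bmp4 was above background in the mixed groups alone (10.86 ± 0.19 in cerebellum, 9.79 ± 0.10 in cortex), and the other 22 populations had means under 6. Ccnd1 was spread most widely, with 14 of the other 20 populations at 6 or more. Behind the mixed groups (11.08 ± 0.18 in cerebellum, 11.33 ± 0.25 in cortex) they formed a run of overlapping neighbours that began with layer 5b (8.45 ± 0.16), layer 5a (8.01 ± 0.78), granule (7.85 ± 0.10) and brainstem motor neurons (7.59 ± 1.12) and took in Bergmann glia (7.24 ± 0.42), mature cortex (6.23 ± 0.09) and cortical astrocytes (6.21 ± 0.83). Cerebellar astrocytes (3.32 ± 0.44) and cholinergic neurons of the corpus striatum (3.41 ± 0.00) were among those under 6.

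In unbound RNA, spinal cord was the highest tissue for 5 of the 6 genes. Pdgfra averaged 10.55 ± 0.53 there (SD, n = 3), and the other 5 tissues lay between 8.68 ± 0.14 in cerebellum and 9.52 ± 0.40 in striatum with overlapping neighbours. Gpr17 averaged 9.24 ± 0.14 in spinal cord, and the other tissues 7.03 to 8.25. Vcan averaged 9.44 ± 0.68 in spinal cord and was lowest in cortex, at 6.33 ± 0.89. Cspg4 reached 6.84 ± 0.10 and Bmp4 6.64 ± 0.00 in spinal cord, and brainstem was the next for Bmp4 at 6.16 ± 0.25. For Ccnd1 cerebellum (8.13 ± 0.41, n = 7), spinal cord (8.11 ± 0.14) and basal forebrain (8.04 ± 0.42) overlapped. These differences between tissues were not tested, except for cerebellum and cortex above.

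Over the 24 TRAP populations, the patterns fell together for some of the genes and not for others. The measure was Pearson's r between group means, which is a description, because the populations share tissues, arrays of 1 platform and values at the array floor. Gpr17 and Cspg4 were each other's closest gene among 12392 above background in some population (r = 0.97), and r was 0.95 without the mixed groups. Pdgfra followed both, with r = 0.92 to Gpr17 and 0.90 to Cspg4, and 0.88 and 0.84 without the mixed groups. Vcan, Bmp4 and Ccnd1 were less like these 3: Vcan and Pdgfra had r = 0.57 in all populations and 0.19 without the mixed groups, and Ccnd1 and Vcan had 0.51 and -0.17.

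**Figure D5:**
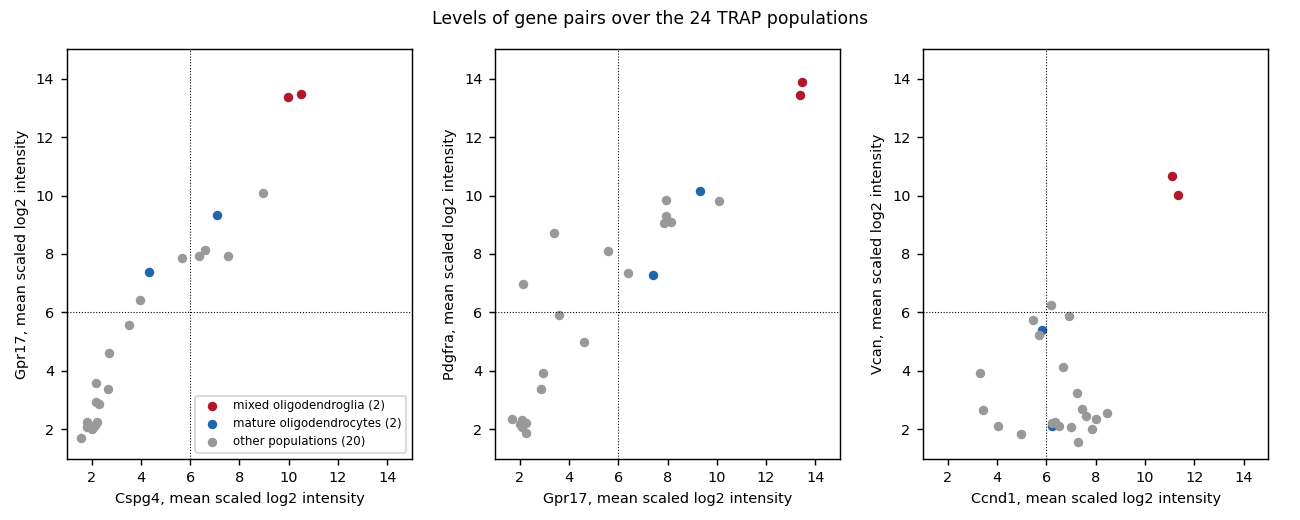
Mean levels (scaled log2 intensity on both axes) of Gpr17 against Cspg4, Pdgfra against Gpr17 and Vcan against Ccnd1 in the 24 TRAP populations. Dotted lines mark 6. In the left panel all populations lie along 1 line, with r = 0.97, while in the right panel the mixed groups stand alone at the upper right.

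The genes most like each member were taken as the 5 with the highest r. Those of Pdgfra were Gpr17, Cxadr (a cell adhesion receptor gene), Cspg4, Dll1 (a Notch ligand gene) and Pbk (a mitotic kinase gene), at r = 0.87 to 0.92. Those of Cspg4 were Gpr17, Susd5, Prkcq, Pdgfra and Ets1, at 0.89 to 0.97. Gpr17 had Cspg4, Susd5, Prkcq, Pdgfra and Enpp6, a phosphodiesterase gene of newly formed oligodendrocytes, at 0.92 to 0.97. Those of Vcan were genes of dividing cells (Cdk1, Ckap2l, Spc25 and Cdca3) and the protease gene Adam12, at 0.83 to 0.86. Bmp4 had Inava, C1ql1, Sox3, Chst5 and the mitotic cyclin gene Ccnb2, at 0.91 to 0.95. Ccnd1 had the loosest set, Abhd2, Tagln2, Sema3d, Susd5 and Trip13, at 0.71 to 0.77. By Spearman's rho 4 of the 5 stayed among the closest for Pdgfra, 3 for Cspg4 and Gpr17, 2 for Vcan and Bmp4, and 0 for Ccnd1. In mixed cerebellum and cortex Inava averaged 10.25 and 9.64, and it was under 6 in both mature groups.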

How the data were processed

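RNA of 76 TRAP and 31 unbound samples was hybridized to Affymetrix arrays of 45101 probe sets after amplification in a 2-cycle kit and biotin labelling, per the labels' protocols. The deposited values are linear intensities that the authors normalized with GCRMA within groups, per the series' design text. The GCRMA version is not given in the sources used here. The lowest value was shared by arrays of 1 group only in 30 sets, which were the 24 TRAP populations and the 6 unbound tissues.

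The deposited intensities were converted to log2 and each group was shifted so that the mean of its 18 biotinylated control probe sets was equal (group means were 10.13 to 12.00 before). Of the probe sets, 34958 have 1 gene symbol, 932 several and 9211 none, and a gene's brightest probe set by mean over all arrays was used. A single limma model (3.58.1, R 4.3.3, trend in the prior variance) held the 30 groups and all 76 TRAP and 31 unbound arrays, and p-values were adjusted by Benjamini-Hochberg over all genes tested. A gene was tested if a compared group had a mean of at least 6, and comparisons of TRAP populations also required enrichment over unbound RNA in the population called higher. The precision rests on how many arrays a group has. The script was tested on simulated data. Promoters came from RefSeq tables.

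Named genes are the 6 members, the 2 drivers, the 5 genes most like each member, and genes called in the pathway and cell type lists. The members and lists were chosen with earlier results of these data known. Per the series' design text the TRAP replicates are independent. Numbers in sample titles were not treated as pairs. Same-numbered arrays of different groups had correlations of their deviations between -0.30 and 0.19, over 0.1 in 2 of 18. Both of these were mature cortex with mature cerebellum, of the same line, where the correlations were 0.03, 0.10 and 0.19. These values cannot settle whether arrays of that line were paired. Alternatives were no shift, quantile normalization, other minima, the mean of all probe sets, other variance models, an added intensity, unbound arrays of the same line, a replicate block, leaving out single arrays and, chosen after seeing the data, values under 6 raised to 6. The driver of 1 cortical line is not reported here.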

Additional observations from a re-analysis of the deposited data

Results flagged for a closer look

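Single arrays stood apart from the others of their group for 7 of 30 combinations of gene and group with 4 to 10 arrays. In 3 of the 7 the other arrays carried identical values, so that any difference stands apart and the chance rate of about 1 in 20 does not apply. In cortical astrocytes, replicate 3 had Pdgfra at 5.23 (the other 3 arrays 3.39 to 3.63) and Cspg4 at 2.34 (others 2.12), and replicate 4 had Vcan at 2.08 (others 2.24). In Purkinje neurons, replicate 3 had Cspg4 at 2.11 (others 2.10). In unbound cerebellum, replicate 7 had Cspg4 at 3.87 (others 3.48 to 3.49) and replicate 1 had Bmp4 at 4.21 (others 5.01 to 5.30). In unbound cortex, replicate 5 had Bmp4 at 5.22 (others 3.00 to 3.75). All of these values are under 6, the level treated as background.

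The difference between mixed and mature oligodendroglia was not the same in cerebellum as in cortex by the interaction term of the limma fit, cerebellum minus cortex, for Pdgfra (2.43) and Gpr17 (1.85). With the mean of its 3 probe sets the Pdgfra term was no longer called. The terms of Cspg4 (2.23), Bmp4 (4.36) and Vcan (-2.64) were also called but rest on mature means under 6, and with values under 6 raised to 6 they were 0.57, 1.07 and 0.63, called for Bmp4 alone. The astrocyte list was 2.16 below unbound RNA in mature cerebellum and 1.63 below it in mature cortex, and 4.10 below it in mixed cerebellum and 0.15 above it in mixed cortex, and its part in these terms was not tested.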

How the results depend on the processing

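For the 6 genes, the calls of mixed over mature oligodendroglia, of mixed oligodendroglia over unbound RNA and over the 7 other populations stayed at 6 of 6 in both regions under every alternative run but the mean of all probe sets. With that mean Vcan fell under the minimum of 6 in the groups compared and was not tested, so 6 of 6 could not be reached. For mature cortex against unbound cortex, the count called lower (2) was 1 under quantile normalization, treat, log2(intensity + 16), the replicate block and a fit on the compared arrays alone, and 0 with a minimum of 8 or the mean of all probe sets. For mature cerebellum against unbound cerebellum, the count called higher (0) was 1 under quantile normalization and the count called lower (3) was 1 with the mean of all probe sets. The single higher call of mixed cerebellum over mixed cortex was 0 under treat, and 0 to 1 with single arrays left out (Bmp4 0.98 without mixed cerebellum replicate 2). The single lower interaction was 0 with the mean of all probe sets, with log2(intensity + 16) and with values under 6 raised to 6, an alternative chosen after seeing the data that left 3 of 4 higher interactions. In that fit Vcan turned to 0.63 and Ccnd1 to -0.25. For mature cerebellum against the 7 other populations, the count called higher (1) was 2 with no minimum, 0 with a minimum of 8 and 3 without the requirement of TRAP over unbound. For unbound cerebellum minus cortex, the count called higher (1) was 0 under quantile normalization and the mean of all probe sets and 2 with no minimum, and the count called lower (0) was 2 and 1 under quantile normalization and no minimum. Over the other 20 populations, 6 higher pairs became 3 with a minimum of 8 or treat, and 63 lower pairs became 32 with a minimum of 8 and 31 with the mean of all probe sets. Signs turned for small differences that were not called: mixed cerebellum minus cortex for Gpr17 (0.26) and Ccnd1 (0.11) without scaling, unbound cerebellum minus cortex for Ccnd1 (-0.032 under quantile normalization, -0.12 with the mean of all probe sets), and the Ccnd1 interaction (-0.24 without mature cerebellum replicate 3, and -0.24 to 0.63 over all single arrays left out). The replicate block by title number, which the main fit left out, changed no count but the one named, where Ccnd1 was -0.97. With unbound arrays of the same line alone (1 array a comparison, none for mixed cerebellum) counts were as before. Vcan rests on 1 probe set, and values under 6 have no order.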
